A study of Drosophila melanogaster with 2 samples.

Results

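The genes described here are those of the piRNA pathway, chosen by name: piwi, aub, AGO3, vas, tej, spn-E, krimp, zuc, armi and qin. Of these 10 symbols, 8 stood in the gene column of the deposited table, which lists 14794 genes. The other 2, tej and qin, were not listed under those symbols and are given apart from the 8 genes, under their older names. Polyadenylated RNA of whole adult Drosophila melanogaster males, 1 to 3 days after eclosion, was sequenced in 2 libraries, 1 of heph2 homozygotes and 1 of heph2/TM3 males. The study uses the heph2/TM3 males as its wild-type control, so a heph2 chromosome was carried by the flies of both libraries. TM3, a balancer chromosome 3 whose rearrangements keep it from recombining with its partner, was carried in the control and not in the homozygotes. heph2 is a P element insertion in hephaestus (heph), which encodes the fly polypyrimidine tract-binding protein dmPTB, and homozygous males are sterile. The study asked how the transcriptome differs between these males.

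piRNAs are small RNAs of the gonads that guide proteins of the PIWI clade to transposon transcripts. Their long precursors are cut at the surface of mitochondria and in the nuage, a perinuclear body of germ cells, where Aubergine and Argonaute 3 cut transposon and precursor transcripts in turn and so amplify the piRNAs in the ping-pong cycle. Piwi instead enters the nucleus and directs the silencing of transposons at the level of chromatin. In the testis the pathway is best known for holding down the repeated Stellate genes of the X chromosome through piRNAs from the Suppressor of Stellate, Su(Ste), repeats of the Y chromosome.

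The level of a gene is its FPKM, its reads set relative to transcript length and to a scale for each library. A ratio is log2 of the heph2 FPKM over the control FPKM. Each genotype had 1 library, so no difference has a replicate check and no p-value is given. Low FPKM values moved in steps of whole reads, and the steps showed that 1 heph2 read was worth 1.54 times as much FPKM as 1 control read. The read numbers that the study reports for the libraries differ by less than this, so the scale was not read number alone. The reads behind each value were estimated from these steps and from transcript lengths, and the 95% intervals printed with the values (exact, from the estimated reads) cover counting error only. In bulk RNA of whole flies, fewer cells of a type and less RNA per cell cannot be told apart. heph itself, all of its transcripts pooled, stood at 44.0 FPKM in the control against 27.2 in heph2 males, a ratio of -0.69. The pooled value does not measure full-length heph RNA. The study reports a severe loss of reads past the insertion, with most heph transcripts of the homozygotes cut short.

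All 8 genes were weakly expressed in whole males. They lay between 1.15 and 5.31 FPKM in the control and between 0.731 and 5.55 FPKM in heph2 males, and the median gene among them stood above 28.0% of all listed genes in the control and 27.1% in heph2. Of the 8 genes, 7 were lower in heph2 males, where 50.4% of all 13433 genes above 0 in both libraries were, and AGO3 was slightly higher. The changes were small. piwi and spn-E stood lowest, at 61.2% and 63.7% of the control, and the other 5 lower genes kept between 79.4% and 88.2% of it. The summed level of the 8 genes was 24.2 FPKM in the control and 20.8 FPKM in heph2 males, a ratio of -0.22.

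**Figure D1:**
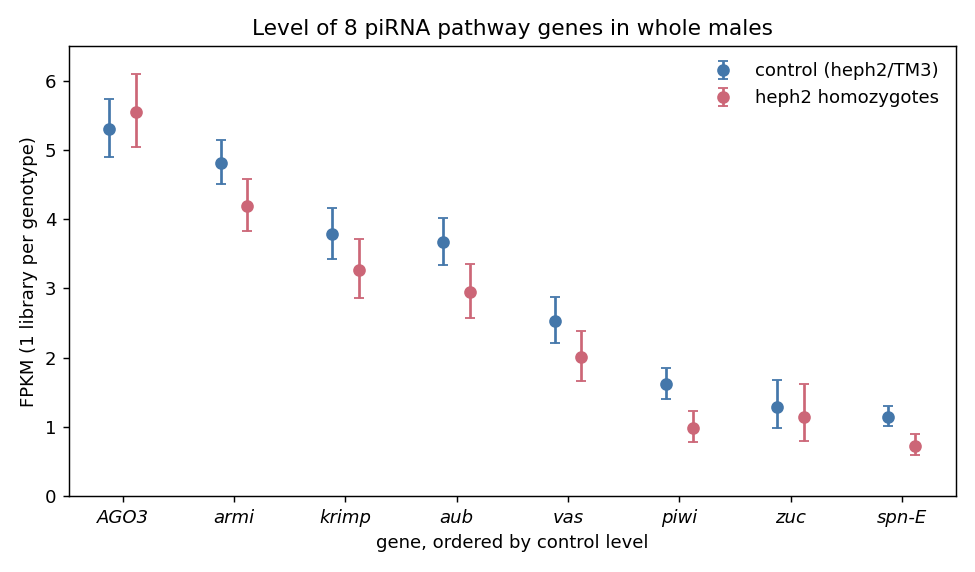
FPKM of the 8 genes (vertical axis, from 0) in the control library (blue) and the heph2 library (red), ordered along the horizontal axis by the control level. Points are the single value of each library and bars are 95% counting intervals from the estimated reads. AGO3 was the most abundant gene in both libraries, at 5.31 and 5.55 FPKM, and spn-E the least abundant, at 1.15 and 0.731 FPKM.

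Among the PIWI proteins, the members did not move alike. piwi (FBgn0004872, within a region of chromosome 2L from 10975535 to 10987416 in r5.44), the nuclear PIWI protein of germline and somatic gonad cells, had 1.61 FPKM (1.41 to 1.85) in the control and 0.988 FPKM (0.789 to 1.22) in heph2 males. About 212 control reads and 84 heph2 reads stood behind these values, and the intervals cover counting error only. The ratio of piwi was -0.71 (-1.09 to -0.34), a 1.63-fold lower level. The locus entry of piwi is shared with SCAR and l(2)06225, and the counting is not stated to use strand, so reads from overlapping parts may have been split between these genes.

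aub (FBgn0000146, chromosome 2L from 10997819 to 11001489), which encodes the cytoplasmic Aubergine of the ping-pong cycle, had 3.66 FPKM (3.33 to 4.02) in the control and 2.94 FPKM (2.58 to 3.35) in heph2 males. Its ratio was -0.32 (-0.55 to -0.08), from about 446 and 232 reads. aub is the close neighbour of piwi, with 10402 bases between their locus entries. AGO3 (FBgn0250816, chromosome 3L from 23547715 to 23682722), the ping-pong partner of Aubergine, had 5.31 FPKM (4.90 to 5.73) in the control and 5.55 FPKM (5.03 to 6.09) in heph2 males. Its ratio of 0.06 (-0.12 to 0.24), from about 638 and 432 reads, held 0 within its counting interval.

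The makeup of the PIWI transcripts therefore differed between the 2 libraries, a comparison within each library that no scaling of the libraries can change. Of the summed FPKM of these 3 genes, piwi gave 15.3% in the control and 10.4% in heph2 males. aub gave 34.6% and 31.1%, and AGO3 gave 50.1% and 58.5%. AGO3 stood at 3.29 times the level of piwi in the control and at 5.61 times in heph2 males. Across the 28 pairs among the 8 genes, the counting intervals of the ratios lay apart for 2 pairs only, AGO3 with piwi and AGO3 with spn-E. The ratio of aub could not be told apart from that of piwi or of AGO3.

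The nuage proteins among the 8 genes are helicases and Tudor domain proteins. vas (FBgn0003970, within a region of chromosome 2L from 15061656 to 15074311), the DEAD-box helicase Vasa that marks germ cells, had 2.53 FPKM (2.22 to 2.87) in the control and 2.01 FPKM (1.66 to 2.39) in heph2 males. Its ratio was -0.33 (-0.66 to -0.02), from about 240 and 123 reads, and its region is listed for vig and CG33678 too. spn-E (FBgn0003483, within a region of chromosome 3R from position 11663159 to 11670138), a helicase with a Tudor domain, had 1.15 FPKM (1.01 to 1.30) in the control and 0.731 FPKM (0.597 to 0.894) in heph2 males. The ratio of spn-E was -0.65 (-0.998 to -0.30), from about 239 and 99 reads. As for piwi, these intervals cover counting error only. The region of spn-E is listed for Pbp45 too. krimp (FBgn0034098, chromosome 2R from 12125606 to 12128222), a Tudor protein that brings Argonaute 3 into the nuage, had 3.79 FPKM (3.42 to 4.16) and 3.26 FPKM (2.86 to 3.71). Its ratio of -0.22 (-0.45 to 0.02) could not be told from 0 at this depth.

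Of the genes of precursor processing, armi changed little, and zuc had too few reads to tell. zuc (FBgn0261266, within a region of chromosome 2L from 11988285 to 11989861), the mitochondrial endonuclease Zucchini that cuts piRNA precursors, had 1.29 FPKM (0.980 to 1.68) in the control and 1.14 FPKM (0.796 to 1.62) in heph2 males. With about 57 and 33 reads it was the least covered of the 8 genes, and its ratio of -0.18 had the widest interval, from -0.83 to 0.48. A change in zuc of the size seen for piwi would lie within this interval. Its region is listed for CG34163 too. armi (FBgn0041164, chromosome 3L from 3461323 to 3466314), an RNA helicase that hands precursors to Zucchini, was the best covered, with about 883 and 498 reads. It had 4.81 FPKM (4.50 to 5.14) in the control and 4.19 FPKM (3.83 to 4.58) in heph2 males, a ratio of -0.20 (-0.36 to -0.04).

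The order of the levels was almost the same in both libraries. From the highest down it was AGO3, armi, krimp, aub and vas in each. piwi stood above zuc in the control and below it in heph2 males, and spn-E was last in both. By their counting intervals, AGO3 and armi could not be told apart in the control, nor could krimp and aub in either library. zuc could not be told apart from piwi or from spn-E in either library, and piwi could not be told apart from spn-E in heph2 males.

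The 2 symbols that were absent have older names in the table. FBgn0033921, now named tej, was listed as CG8589 (chromosome 2R from 10187605 to 10189858) and encodes Tejas, a Tudor protein that gathers Vasa and Spindle-E in the nuage. It had 1.36 FPKM (1.12 to 1.64) in the control and 0.813 FPKM (0.593 to 1.10) in heph2 males, and its ratio of -0.74 (-1.27 to -0.21), from about 110 and 43 reads, was close to those of piwi and spn-E. qin, which encodes a Tudor protein of the ping-pong cycle, has since been joined from 2 gene models, CG14303 and CG14306. CG14303 had 0.502 FPKM in the control against 0.417 in heph2 males, and CG14306 had 0.102 and 0.158 FPKM. The ratio of CG14306, 0.63, is the one given by an equal number of reads in both libraries.

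The changes were then read against the rest of the table. For counts of genes, genes were kept if their mean FPKM reached 1 and neither value was 0, which left 11962 genes. Their median ratio was 0.01. Of the 8 genes, 7 passed this minimum, and spn-E, with a mean of 0.939 FPKM, did not. piwi alone among the 7 was at least 1.5-fold lower, where 7.26% of all genes compared were. None of the 7 was at least 1.5-fold higher, against 9.16% of all genes compared, and none changed 2-fold, against 2.44% lower and 2.79% higher. With no minimum, piwi and spn-E were the 2 of 8 genes at least 1.5-fold lower, against 10.3% of the genes then compared.

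The ratios of all genes varied with their level. The 7 piRNA genes had a median ratio of -0.22, below the 0.01 of all genes compared. Among the 2636 genes with a mean FPKM between 0.939 and 5.43, the range that the 8 genes span, the median ratio was -0.23, 73% had a ratio below 0 and 16.9% were at least 1.5-fold lower. This range was chosen after the values were seen. The median of the piRNA genes thus lay at that of genes of like abundance. When each ratio was taken relative to genes of similar transcript length and level, piwi remained lower at -0.45 and spn-E at -0.26, while AGO3 stood at 0.26 and the other 5 genes between -0.17 and 0.04. No gene then reached 1.5-fold.

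**Figure D2:**
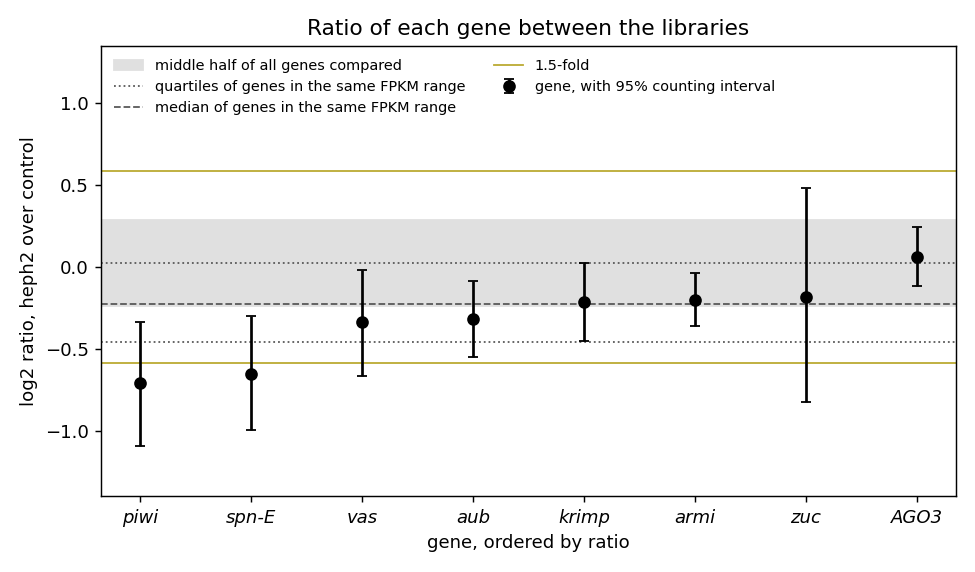
Ratio (log2, heph2 over control, vertical axis) of each of the 8 genes, ordered along the horizontal axis, with bars for the 95% counting interval. The grey band spans the quartiles of all 11962 genes compared, dotted and dashed lines are the quartiles and the median (-0.23) of the 2636 genes in the same FPKM range, and yellow lines mark 1.5-fold. piwi (-0.71) and spn-E (-0.65) lie below the lower dotted line (-0.46) and AGO3 (0.06) just above the upper (0.03).

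Another scaling of the libraries shifts all ratios by 1 amount and keeps their order. The summed FPKM of all genes was higher in heph2 males by 0.28 on the log2 scale, and the 82 cytosolic ribosomal protein genes had a median ratio of 0.44. With equal totals, piwi, aub and vas were at least 1.5-fold lower among the 7 genes, where 19.7% of all genes compared then were, and AGO3 stood at -0.22. Centred on the ribosomal protein genes, 6 of the 7 were at least 1.5-fold lower, against 33.4% of all genes compared, and AGO3 stood at -0.38. The sign of AGO3 was therefore set by the scaling, and its place above the other 7 genes was not. Genes in the members' FPKM range had a median ratio of -0.23 before these shifts. Their share at least 1.5-fold lower after the shifts was not counted, so neither count is read as particular to the piRNA genes.

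**Figure D3:**
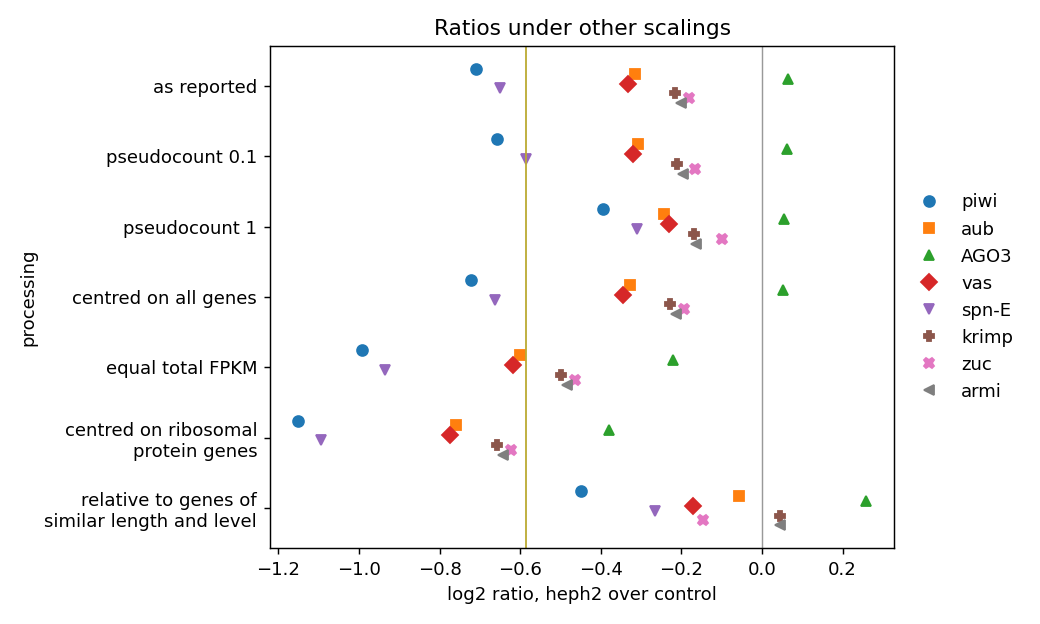
Ratio (log2, heph2 over control, horizontal axis) of the 8 genes, one marker each, under 7 ways of processing (vertical axis), with small vertical offsets for legibility. The yellow line marks 1.5-fold lower. piwi is leftmost in every row, from -0.40 with a pseudocount of 1 to -1.15 when centred on ribosomal protein genes, and AGO3 is rightmost in every row.

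By chromosome, the 3 genes on chromosome 3 (AGO3, spn-E and armi) had ratios from -0.65 to 0.06. The 5 genes on chromosome 2 (piwi, aub, vas, krimp and zuc) had ratios from -0.71 to -0.18. TM3 was in the control library alone, so the heph2 genotype and the balancer cannot be told apart for any of these genes. The median ratio of all genes compared was 0.02 on chromosome 2 and 0.00 on chromosome 3.

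Further genes of the pathway were read as lists by role. Of 37 genes listed, 35 were found in the table and 29 passed the minimum, with 18 lower and 11 higher in heph2 males and a median ratio of -0.06. Of all genes compared, 48.5% were lower. None of the 29 was at least 1.5-fold lower and 1 was at least 1.5-fold higher, against 7.26% and 9.16% of all genes compared. That gene was arx (listed as CG3893, on chromosome 3L), which encodes Asterix, a partner of Piwi in nuclear silencing. Its level was 8.69 FPKM in the control against 14.6 in heph2 males, a ratio of 0.75 (0.51 to 0.98) from about 280 and 304 reads. The 9 genes of nuclear silencing had a median of -0.14, and apart from arx their ratios lay between -0.44 and 0.35. With equal total FPKM, or centred on the ribosomal protein genes, arx was under 1.5-fold higher.

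The 7 genes compared of cluster transcription and export had a median ratio of 0.01. In this list rhi, which encodes the HP1 homologue Rhino that marks the clusters giving rise to piRNA precursors, had 0.546 FPKM in the control, from about 35 reads, and was listed at 0 in heph2 males. Its mean lay under the minimum, it was singled out after its values were seen, and its locus entry holds 4 genes. The products of del and cuff bind Rhino. del had 7.66 FPKM in the control against 6.69 in heph2 males, and cuff had 2.11 and 2.35 FPKM. The 6 genes compared of the nuage and Tudor list had a median of -0.12, with ratios from -0.48 to 0.33, and the 7 genes compared of biogenesis and loading had a median of -0.05, with ratios from -0.48 to 0.27.

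The other small RNA pathways were set beside these genes. The 10 genes of the siRNA and miRNA pathways, all of them compared, had a median ratio of -0.28 and ratios from -0.42 to 0.16. None changed 1.5-fold, against 7.26% of all genes compared lower and 9.16% higher. AGO2, the Argonaute of siRNAs, had 42.9 FPKM in the control against 36.0 in heph2 males. AGO1, that of miRNAs, had 6.35 and 6.42 FPKM. Together they stood at 4.66 times the summed level of the PIWI genes in the control and at 4.47 times in heph2 males. This ratio of sums was nearly the same in both libraries, and most of the sum of AGO1 and AGO2 came from AGO2. The median of these 10 genes, like that of the piRNA genes, lay below that of all genes compared.

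**Figure D4:**
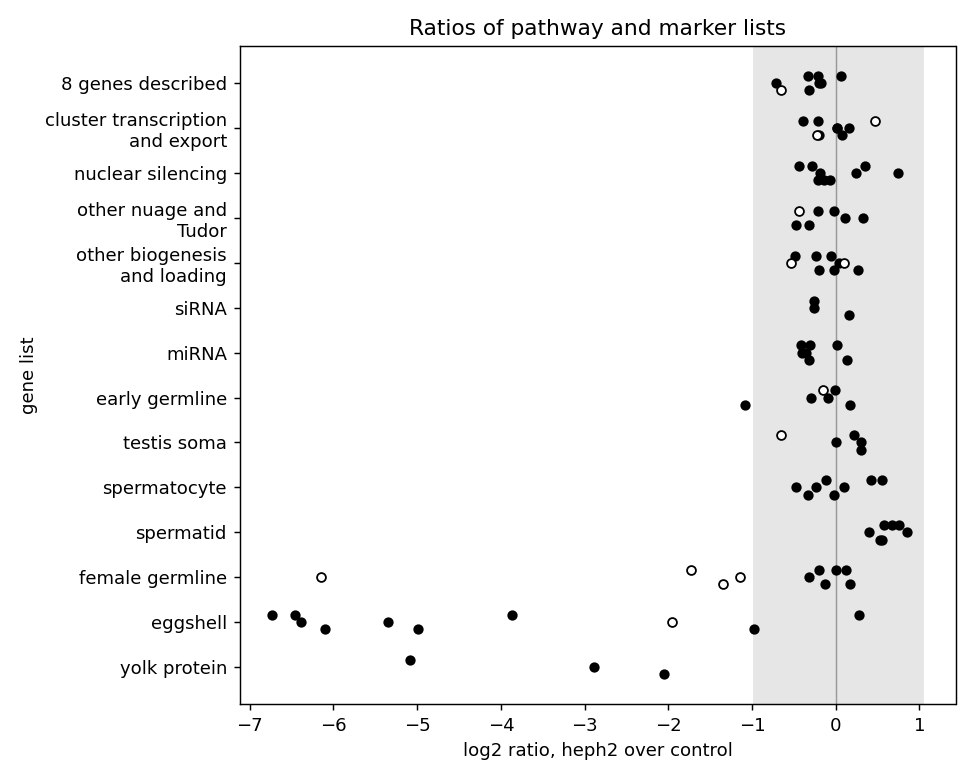
Ratio (log2, heph2 over control, horizontal axis) of each gene in the pathway and marker lists (vertical axis). Filled points are genes that passed the minimum mean FPKM of 1, open points fell below it, and rhi, listed at 0 in heph2 males, is not drawn. The grey band holds the central 95% of all genes compared. The small RNA genes that are drawn stay within the band, while most eggshell and all 3 yolk protein genes lie far below it.

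Among the Stellate entries, the testis target of the pathway, all but 1 were close to absent in both libraries. Of 14 Stellate entries, 10 were listed at 0 in both. Ste:CG33243 and Ste:CG33246 each had 0.106 FPKM in the control against 0.0816 in heph2 males, the ratio given by 2 control reads for each heph2 read, and Ste:CG33236 had 0.0529 FPKM and was listed at 0. SteXh:CG42398, of the unplaced scaffold U, was the exception, with 5.08 FPKM in the control against 2.96 in heph2 males, a ratio of -0.78. The 42 Su(Ste) entries summed to 2.49 FPKM in the control and 2.10 FPKM in heph2 males, and 16 of them were listed at 0 in both. These copies are nearly identical, so reads cannot be assigned to 1 copy with certainty, and the values at 0 are uncertain for the same reason. No Stellate entry was higher in heph2 males, but 10 of the 14 were at 0 in both. Whether Stellate silencing differed was not tested.

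Markers of the cells that could carry piRNA transcripts did not all move alike. Of the 6 early germline genes, vas not among them, 5 passed the minimum, with a median ratio of -0.09 and a summed level over the 6, most of it from the broadly expressed stai, of 84.2 FPKM in the control against 78.2 in heph2 males. The lowest of these 5 was zpg, the germline gap junction gene. It had 1.60 FPKM in the control against 0.760 in heph2 males, a ratio of -1.08 (-1.71 to -0.46). bam and nos, which act in germline stem cells and their early daughters, had ratios of -0.16 (-0.76 to 0.41) and 0.17 (-0.09 to 0.43). Of these, bam lay under the minimum. The 8 spermatocyte genes had a median of -0.06 (90.8 and 92.3 FPKM summed), the 4 testis soma genes compared had a median of 0.26 (29.2 and 32.9 FPKM summed over 5), and the 7 spermatid genes were all higher in heph2 males, with a median of 0.58 (4744 and 7440 FPKM summed). The 4 testis soma genes compared were all higher, with ratios from 0.005 to 0.31. tj, which encodes a transcription factor of the gonad soma, is in the same list and lay under the minimum. It had 0.852 FPKM in the control against 0.542 in heph2 males, a ratio of -0.65 (-1.14 to -0.18). No gene of these 4 lists was at 0.

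Among the marker lists, those of eggshell and yolk protein genes differed most, although both libraries are labelled male. Of the 10 eggshell genes, 9 passed the minimum and 8 of these were lower in heph2 males, with a median ratio of -5.35 and a sum of 213 FPKM in the control against 14.7 in heph2. All 3 yolk protein genes were lower (114 and 14.7 FPKM summed). The female germline list did not follow them. Of its 10 genes, 6 passed the minimum, with a median of -0.06 (581 and 609 FPKM summed over the 10). Of these 6, 3 were lower and 3 higher, with ratios from -0.32 to 0.17. The other 4 were the scarce ones, and all were lower. osk, which organises the germ plasm of the egg, had 1.76 FPKM in the control against 0.0247 in heph2 males, a ratio of -6.15 (-9.20 to -4.27) from about 218 and 2 reads. swa had 1.20 and 0.362 FPKM, otu had 0.868 and 0.341 FPKM, and bcd had 0.312 and 0.142 FPKM. No gene of the 3 lists was at 0. The piRNA genes are known to be expressed in ovaries too. The part of ovary RNA in the lower levels of the piRNA genes was not tested.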

How the data were processed

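The authors mapped single reads with TopHat2 2.0.4 to the FlyBase r5.44 genome and annotation, and deposited the FPKM of each gene that Cufflinks 2.0.0 gave for each library. The deposited column of log2 fold changes is the authors' own comparison and was not used.

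Ratios were log2 of heph2 over control FPKM without a pseudocount. The study's test of differential expression rests on reads and could not be repeated from FPKM. Genes were compared if their mean FPKM reached 1 and neither value was 0. Positions are those of the table in r5.44, with 1 added to each start: the locus length of 1489 of 8716 lone genes equals that of the BDGP6 annotation (Ensembl release 115) if the start counts from 0, and of 146 genes if it counts from 1. BDGP6 was used only for symbols and transcript lengths, which 13874 genes had.

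One read on 1 kilobase was worth 0.0215 FPKM in the control and 0.0332 FPKM in heph2, where 62.4% of 479 and 62.5% of 570 low genes with a single transcript fell within 0.1 of a whole read (20% by chance). Reads were estimated with the median transcript length and fragments of 200 ± 80 bases, and are approximate. Intervals are exact 95% Poisson intervals for levels and Clopper-Pearson intervals for ratios. They were tested on simulated reads.

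All 8 genes were named, with heph, AGO1, AGO2 and genes of the other small RNA lists changed at least 1.5-fold. Su(Ste) copies are given by counts, and genes beyond these were chosen after their values were seen. The genes and lists were chosen with earlier results of these data known. Alternatives were other pseudocounts, minima, scalings and centrings, and genes alone in their locus entry. Python 3.11.15, numpy 2.4.6, pandas 2.3.3, scipy 1.17.1 and matplotlib 3.10.9 were used.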

Additional observations from a re-analysis of the deposited data

How the results depend on the processing

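The median ratio of the piRNA genes, -0.22, became 0.064 with a minimum mean FPKM of 5, which leaves AGO3 alone, -0.66 when centred on ribosomal protein genes, -0.056 relative to genes alike in length and level, and -0.50 with equal total FPKM. The count at least 1.5-fold lower, 1 of 7, was 0 with a pseudocount of 1, 2 with no minimum, 0 with a minimum of 5, 6 when centred on ribosomal protein genes, 0 relative to similar genes, 3 with equal totals and 0 of the 4 genes alone in their locus entry, which leaves out piwi. The count at least 2-fold lower, 0, was 1 when centred on ribosomal protein genes. A minimum of 10 left none of the 8 genes. For the other piRNA pathway genes the count at least 1.5-fold lower, 0, was 13 when centred on ribosomal protein genes and 5 with equal totals, and the count higher, 1, was 0 under both. Their median, -0.06, was 0.044 with a minimum of 10, -0.51 centred on ribosomal protein genes, -0.35 with equal totals and -0.21 for genes alone in their locus entry. The median of the siRNA and miRNA genes, -0.28, was -0.058 with a minimum of 10, -0.73 centred on ribosomal protein genes, -0.058 relative to similar genes and -0.57 with equal totals. Of 61 values of single genes under the alternatives, 16 left the counting interval of the reported value. The 61 include settings that only choose which genes are kept, under which a gene's own ratio could not move. No gene at least 1.5-fold lower changed sign. Relative to similar genes krimp rose to 0.044 and armi to 0.045, and AGO3 fell below 0 with equal totals and when centred on ribosomal protein genes. The 2 centrings and the totals move all ratios by 1 amount. With 1 library per genotype no replicate could be left out, and no paired analysis was possible because each genotype had 1 library.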
